A study of Mus musculus with 15 samples.

Results

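The clustered histone genes supply the bulk of the core and linker histones that package new DNA. They were taken here as every protein-coding gene whose mouse symbol in the GENCODE annotation, release M21, starts with Hist1h, Hist2h, Hist3h or Hist4h. Of 70 such symbols, 3 were pseudogenes and were left out, which left 67 of the 55487 genes in each table. By class, 6 encode linker histone H1, 18 encode H2A, 18 H2B, 12 H3 and 13 H4. By position, 54 lie in the Hist1 cluster on chromosome 13, 10 in the Hist2 cluster on chromosome 3, 2 in the Hist3 cluster on chromosome 11, and Hist4h4 stands alone on chromosome 6. The expression of these genes was measured in left ventricle of male mice aged 225 days. The kidney disease group (7 libraries) carried a mutation of Col4a5, a collagen IV chain of the kidney's filter, and the wild-type group (8 libraries) consisted of their littermates on the same normal chow. The labels name the mutation a knockdown in some fields and a knockout in another; the anaesthetic is likewise given as isoflurane in the titles and as ketamine/xylazine in the protocol. The labels restrict the mutation to no cell type, and they place the mutants at a stage comparable to late chronic kidney disease in people.

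Most clustered histone messages have no introns, and they differ from other messenger RNAs at their end, which has no poly(A) tail. They end in a short stem-loop that the stem-loop binding protein Slbp holds while U7 small nuclear RNP guides the cut. They are made in S phase together with new DNA and are degraded when replication stops, so that a tissue with few dividing cells, such as adult ventricle, holds little of them. Some of the genes also give polyadenylated transcripts in cells that no longer divide. Libraries made from poly(A)-selected RNA miss the tailless form, whereas these libraries were made from total RNA with ribosomal RNA removed (KAPA RiboErase) and can hold both forms.

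Each library held between 48748379 and 65519279 counts, of which the 67 genes took 18220 to 54541, or 0.0374% to 0.0884%. Col4a5 was lower in every mutant library (9.19 to 16.2 CPM, counts scaled to a common library size) than in every wild-type library (50.4 to 65.7 CPM), as the labels say. 1 library stood apart for the histone genes: kidney disease 6 held the highest value of all 15 libraries for 49 of the 52 histone genes that could be tested, while it held the highest value for 20.8% of all 20718 genes tested. The log2 change of most genes named below is therefore given with and without that library. Shorter coding genes other than histones were also often highest in kidney disease 6. The share was 52.9% under 500 bases of exon and 53.6% from 500 to under 1000 bases. It was 46.6% from 1000 to under 2000 bases and 21.0% for longer genes. In 10 libraries mt-Co1 had more counts than Ttn and in 5 (kidney disease 4, 5 and 7, wild type 6 and 7) Ttn had more. The design text calls the samples biological replicates, and the labels do not number the animals. These are bulk samples, so fewer cells of a type and less RNA per cell cannot be told apart.

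The stem-loops are shown first because they mark the messages that can end without a poly(A) tail. The conserved pattern (GG at the start, CTTTT in the middle, then AG and CC after 1 free base, with the other positions free) was found in an annotated transcript of 44 of the 67 genes, and in 28 of 21834 other coding genes (0.128%). It occurred in 6 forms, and 1 gene is shown for each, with the stem-loop in capitals and the flanking bases of the transcript in lower case, 5′ to 3′.
Hist1h1c: ccaaaaGGCTCTTTTCAGAGCCaccac
Hist1h4c: acaaaaGGCCCTTTTCAGGGCCaccca
Hist1h3e: caaaacGGCTCTTTTAAGAGCCacctc
Hist2h4: cctaacGGCCCTTTTTAGGGCCaacca
Hist1h4j: cctaaaGGTCCTTTTCAGGACCaccac
Hist2h2ac: caaaaaGGCTCTTTTTAGAGCCaccaa
The form of Hist1h1c was carried by 26 genes, that of Hist1h4c by 7, that of Hist1h3e by 6, those of Hist2h4 and Hist1h4j by 2 each, and that of Hist2h2ac by 1. In the GRCm38 genome these stretches lie at chr13:23739506-23739532 on the plus strand (Hist1h1c), chr13:23698084-23698110 on the minus strand (Hist1h4c), chr13:23561898-23561924 on the minus strand (Hist1h3e), chr3:96262934-96262960 on the minus strand (Hist2h4), chr13:21735431-21735457 on the plus strand (Hist1h4j) and chr3:96220413-96220439 on the minus strand (Hist2h2ac). All 6 lie in the 3′ UTR, just after the coding sequence. For each gene the matching transcript with the fewest bases after the stem-loop was taken, so a longer annotated transcript may exist. In 22 genes it ended within 100 bases of the stem-loop (for Hist1h2ab, 11 bases after it). In another 22 it ran further, as it does for Hist1h1c (840 bases) and Hist2h4 (1257 bases). A model that stops at the end of the coding sequence, as several here do, holds no stem-loop, so the 23 genes with no match are not thereby genes without one.

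Promoters of 61 of the 67 genes were found in the RefSeq table (assembly GRCm38.p6), each with 250 bases before the annotated start and 50 after it. For Hist1h2ap, Hist1h2bc, Hist1h3a, Hist1h3f, Hist2h2be and Hist2h4, no single entry under these names with a promoter on the same chromosome and strand was found. 4 short motifs were searched on both strands: the TATA box as TATAAA, the CCAAT box by those letters, the octamer ATTTGCAT bound by Oct-1, and AAACACA, an element known from H1 promoters. CCAAT was present in 52 of 61 (85.2%, against 37.4% of all 32851 promoters): in all 6 promoters of H1 genes, all 17 of H2A, all 16 of H2B and all 10 of H3, but in 3 of 12 of H4. TATAAA was present in 35 (57.4%, against 13.6%). The octamer was present in 13 (21.3%, against 1.74%), of which 7 belonged to H2A and 6 to H2B genes; 18 of the 61 promoters overlapped that of another histone gene, and so did 6 of the 13 with the octamer. AAACACA was present in 5 of 6 H1 promoters and in 9 of all 61 (14.8%, against 7.18%). The first 280 bases of the promoters of 3 genes described below are shown, with matches to the motifs in capitals on either strand. ATGCAAAT and ATTGG are the reverse complements of the octamer and of CCAAT. No matches overlap in these promoters. The stretches shown lie on the plus strand at chr13:23738557-23738836 (Hist1h1c), chr13:23750838-23751117 (Hist1h2ab) and chr13:21734784-21735063 (Hist1h4j).
Hist1h1c: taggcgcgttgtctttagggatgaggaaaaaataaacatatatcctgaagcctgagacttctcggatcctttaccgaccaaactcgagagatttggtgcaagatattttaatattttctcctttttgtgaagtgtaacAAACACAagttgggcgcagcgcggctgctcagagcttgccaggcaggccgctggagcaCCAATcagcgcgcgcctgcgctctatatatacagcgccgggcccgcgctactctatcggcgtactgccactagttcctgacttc
Hist1h2ab: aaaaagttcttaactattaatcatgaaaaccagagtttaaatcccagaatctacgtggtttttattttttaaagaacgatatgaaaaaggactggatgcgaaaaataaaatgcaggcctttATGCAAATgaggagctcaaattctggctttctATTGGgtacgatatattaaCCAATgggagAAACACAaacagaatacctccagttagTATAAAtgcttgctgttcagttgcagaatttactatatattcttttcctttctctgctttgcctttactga
Hist1h4j: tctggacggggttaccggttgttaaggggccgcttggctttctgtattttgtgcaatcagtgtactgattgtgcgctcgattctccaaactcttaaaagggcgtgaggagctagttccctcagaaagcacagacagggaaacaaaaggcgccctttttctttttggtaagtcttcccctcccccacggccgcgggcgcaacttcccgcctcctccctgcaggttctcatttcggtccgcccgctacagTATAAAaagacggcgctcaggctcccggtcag
The linker gene Hist1h1c shows AAACACA and 1 CCAAT, the H2A gene Hist1h2ab all 4 motifs, and the H4 gene Hist1h4j TATAAA alone. A match is a description of letters, not a bound site.

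Because histone genes of a class are nearly copies of each other, a read can fit several of them, and how such reads were counted is not given in the sources used here. Of the 50-base windows of each gene's exons, the share found in no annotated transcript of another gene, on either strand, ran from 0% to 100%. It was 0% for 5 genes (Hist2h2aa1, Hist2h2aa2, Hist2h2bb, Hist2h3b and Hist2h3c1), and each of these 5 was at 0 counts in all 15 libraries. All windows of each of these 5 are also found in a predicted gene that overlaps it at the same place (Gm20628, Gm20632, Gm20633 or Gm20634). The 0% therefore does not by itself mean a near copy elsewhere. The 6th gene at 0 throughout was Hist1h2aa, a testis form of H2A, of which 76.2% of windows were unique. A count of 0 for the 5 says nothing about their level. Hist1h4m (10.2% unique), Hist1h2ai (9.88%) and Hist1h2bn (13.6%), named after their values were seen, did have counts, but those could belong partly to their near copies, and the values of every gene with a low share are uncertain in this way. 4 genes had only unique windows: Hist1h1a, Hist1h1b, Hist1h1t and Hist2h2be. Counting the 5 genes at 0%, 24 of the 67 overlap an exon of another gene, in most H2A genes a model on the opposite strand. Whether the counting used strand is not given.

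**Figure D1:**
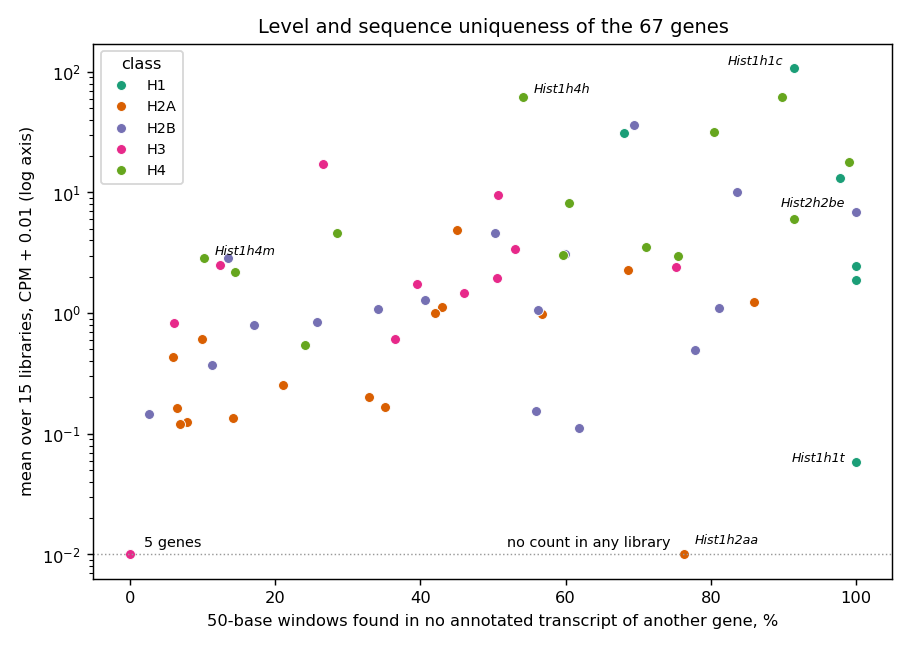
Mean level over the 15 libraries (CPM plus 0.01, log axis) of the 67 clustered histone genes against the share of their 50-base windows found in no annotated transcript of another gene, coloured by class. The 5 genes at 0% had no count, while genes at 100% ranged from Hist1h1t, near 0, to Hist2h2be.

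Summed over all 67 genes, the level in the kidney disease group was 556 ± 148 CPM (SD, n = 7) against 429 ± 43.8 CPM (SD, n = 8) in wild type, a ratio of 1.29. CPM are scaled throughout by the trimmed mean of M values (TMM). The 7 kidney disease libraries had a lowest value of 465, a median of 498 and a highest of 884 CPM, and the wild-type libraries a lowest of 359, a median of 423 and a highest of 491 CPM. Kidney disease 6 held the 884, and the next value in the group was 557 CPM in kidney disease 3. Without it the mean was 501 ± 32.9 CPM and the ratio 1.17. The groups overlapped at their edges, since 3 kidney disease libraries (465, 476 and 490.5 CPM) lay below the highest wild-type library. The 3 kidney disease libraries led by Ttn averaged 491 CPM against 385 CPM in the 2 wild-type libraries of that kind, with the lowest of the first (465) above the highest of the second (410). Among libraries led by mt-Co1 the means were 604 (n = 4, kidney disease 6 included) and 444 CPM (n = 6), and there the groups overlapped. No test was made on these sums.

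Most of the histone counts came from H4 and H1, although how reads in shared or overlapping sequence were counted is not known. H4 genes summed to 234 ± 59.1 CPM in kidney disease and 184 ± 19.6 CPM in wild type, and H1 genes to 178 ± 39.7 and 135 ± 16.3 CPM. H2B genes, the partners of H2A in the nucleosome, summed to 77.3 ± 19.99 against 65.0 ± 6.85 CPM, H3 genes to 50.3 ± 24.5 against 33.7 ± 5.79 CPM, and H2A genes to 16.0 ± 5.96 against 11.4 ± 1.91 CPM. The ratio of group means was largest for H3 (1.49) and smallest for H2B (1.19); without kidney disease 6 the ratios were 1.22 for H3, 1.21 for H1 and H2A, 1.15 for H4 and 1.07 for H2B. In all 5 classes kidney disease 6 held the highest value and the groups overlapped, also when it was left out. By position, the Hist1 cluster summed to 513 against 393 CPM (ratio 1.31, or 1.18 without kidney disease 6), Hist2 to 32.8 against 28.0 CPM (1.17, or 1.09), Hist3 to 2.91 against 2.65 CPM (1.10, or 1.05) and Hist4h4 to 6.38 against 5.69 CPM (1.121, or 1.05).

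**Figure D2:**
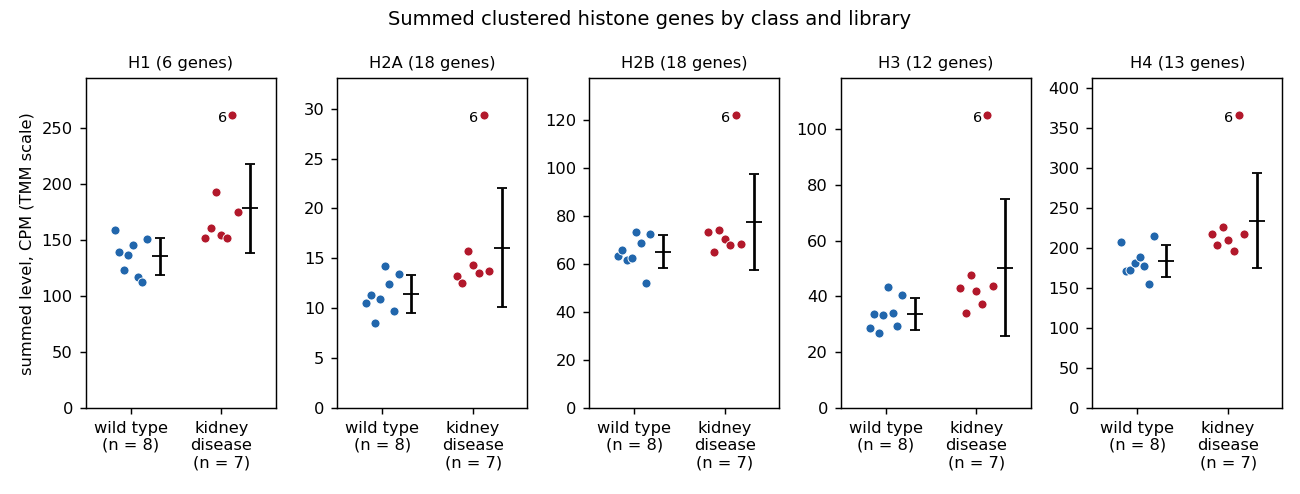
Summed level (CPM on the TMM scale) of the clustered histone genes of each class in each library, as points, with group mean and SD beside them (wild type n = 8, kidney disease n = 7). The point marked 6 is kidney disease 6, which reached 366 CPM for H4 and 261 CPM for H1 while the other kidney disease libraries reached at most 226 and 192.9 CPM.

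Of the 67 genes, 52 had enough counts to be tested between the groups with edgeR's quasi-likelihood test, with p-values adjusted over all 20718 genes by the method of Benjamini and Hochberg and a threshold of 0.05. 1 of the 52, Hist1h2ab, was called higher in kidney disease, where 0.811% of all genes tested were called higher. None was called lower, where 0.473% of all genes were; at an unadjusted p under 0.05, 1 was lower (5.55% of all genes) and 38 were higher (6.84% of all genes). DESeq2 gave an adjusted p to 48 of the 67 genes and to 17114 genes in all. It called 10 of the 48 higher (2.21% of the 17114) and none lower (1.53%). The log2 change was above 0 in 51 of the 52, against 51.2% of all genes, and its median was 0.62, against 0.004 over all genes. Without kidney disease 6, none was called in either direction (0.52% of all genes were called higher and 0.296% lower), 19 were higher and 1 was lower at an unadjusted p under 0.05 (5.73% and 4.94% of all genes), 51 of 52 stayed above 0, and the median log2 change was 0.31. The smallest adjusted p of a histone gene was then 0.0653, for Hist1h4j. In no gene of the 52 did all kidney disease libraries lie above or below all wild-type libraries (0.386% of all genes were higher and 0.179% lower in this way), nor without kidney disease 6 (0.454% and 0.241%). In 20 of the 52, all 7 kidney disease libraries lay above the wild-type mean, against 5.21% of all genes. The filter on low counts asked for enough counts in at least 7 libraries, the size of the smaller group, whichever group they came from. A gene low in wild type could therefore pass through the 7 kidney disease libraries alone, and the shares above include any such gene. Of the 15 genes the filter left out, 6 had no count in any library and the other 9 had at most 33 counts in a library.

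**Figure D3:**
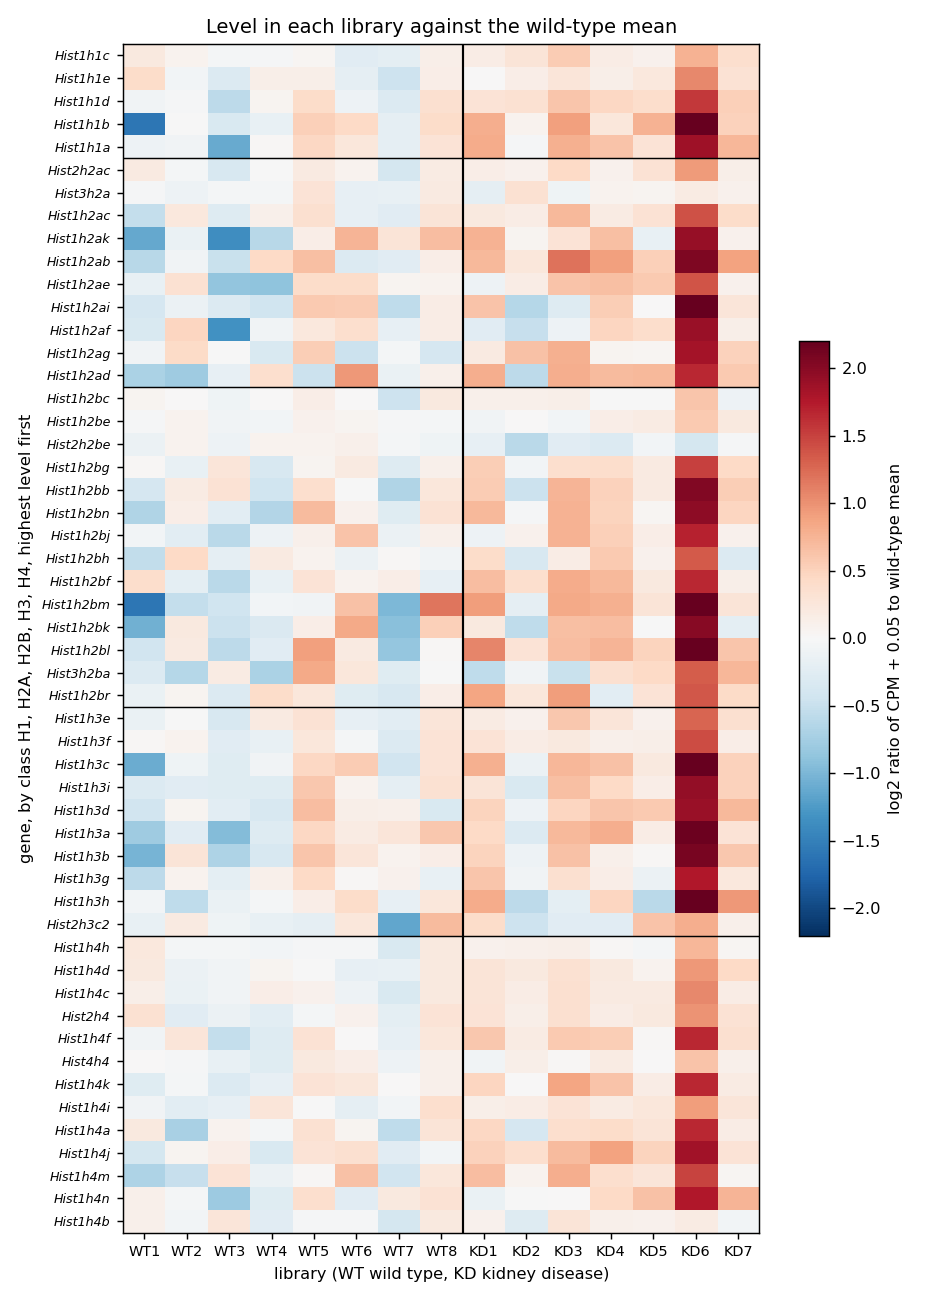
Level of the 52 tested genes (rows, by class) in each library (columns, wild type WT1 to WT8 and kidney disease KD1 to KD7), as the log2 ratio of CPM plus 0.05 to the wild-type mean; colours end at 2.2 in either direction. Column KD6 is the darkest red for 49 of 52 rows, and Hist2h2be is the row with values at or below the wild-type mean in every kidney disease library.

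Linker histones bind the DNA where it enters and leaves the nucleosome. Hist1h1c, at chr13:23738808-23740367, had the most counts of all 67 genes. Its level was 101 (lowest), 114 (median) and 160 CPM (highest) in kidney disease, and 79.8, 95.1 and 110 CPM in wild type. All 7 kidney disease libraries lay above the wild-type mean of 94.6 ± 10.3 CPM, but the lowest 101 CPM lay within the wild-type range. The log2 change was 0.36 (SE 0.094, edgeR adjusted p = 0.0696), and without kidney disease 6 it was 0.28 (SE 0.080, adjusted p = 0.113). Its level there, 160 CPM, was 1.45 times the median of the other kidney disease libraries.

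Hist1h1d, another somatic linker gene, was at 12.8, 14.2 and 30.4 CPM in kidney disease and 6.90, 10.03 and 13.8 CPM in wild type. Its log2 change was 0.66 (SE 0.18, edgeR adjusted p = 0.0711), or 0.44 without kidney disease 6. Hist1h1e was at 27.5, 31.97 and 56.8 CPM against 19.9, 28.1 and 36.4 CPM (log2 0.35, adjusted p = 0.311, or 0.18 without kidney disease 6), and its annotated exons overlap those of Hist1h2be on the same strand. The linker genes known best from dividing cells were lower in level and further apart between groups. Hist1h1b was at 1.72, 2.80 and 9.12 CPM against 0.512, 1.54 and 2.37 CPM, log2 change 1.06 (SE 0.33, adjusted p = 0.141), or 0.59 without kidney disease 6. Hist1h1a was at 1.33, 2.29 and 5.09 CPM against 0.604, 1.33 and 1.87 CPM, log2 change 0.87 (SE 0.25, adjusted p = 0.103), or 0.59 without that library. For both, every window is unique, so their counts cannot come from near copies among annotated transcripts. Hist1h1t, the testis linker histone, had at most 7 counts in any library and was not tested.

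H2A genes had the lowest summed level of the 5 classes, but every H2A gene also overlaps an exon of another gene. How reads in such overlaps were counted is not given, so the sums of the classes may not be comparable. Hist1h2ab, at chr13:23751126-23751598, was the gene that passed the threshold. Its level was 0.781 (lowest), 1.25 (median) and 2.87 CPM (highest) in kidney disease and 0.409, 0.577 and 1.06 CPM in wild type. All 7 kidney disease libraries lay above the wild-type mean of 0.653 ± 0.228 CPM, and the groups overlapped between 0.781 and 1.06 CPM. The log2 change was 1.10 (SE 0.27, edgeR adjusted p = 0.0493), from 20 to 177 counts per library. Leaving out kidney disease 6 gave 0.82 (SE 0.23, adjusted p = 0.102). The call also ended when any other single library was left out except kidney disease 2; the adjusted p over these 15 fits ran from 0.0413 to 0.102. A predicted gene, Gm44484, lies on the opposite strand across its exon, and 42.0% of its windows are unique. Hist2h2ac, highest of the class, was at 4.595, 4.76 and 8.26 CPM against 3.29, 4.42 and 4.97 CPM (log2 0.34, adjusted p = 0.279, or 0.21 without kidney disease 6). Hist3h2a was at 1.95, 2.37 and 2.84 CPM against 1.96, 2.16 and 2.77 CPM, with a log2 change of 0.08 (SE 0.12; 0.06 without kidney disease 6) and values that overlapped almost fully. Hist1h2ac was at 1.118, 1.25 and 2.71 CPM against 0.675, 0.971 and 1.28 CPM (log2 0.58, adjusted p = 0.224, or 0.36 without kidney disease 6).

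Among H2B genes, the 3 highest in level had the log2 changes closest to 0. Hist1h2bc, which is known to give a polyadenylated transcript, was at 31.9, 37.1 and 52.7 CPM in kidney disease and 24.99, 34.6 and 40.1 CPM in wild type, with a log2 change of 0.14 (SE 0.10, edgeR adjusted p = 0.647) that was 0.04 without kidney disease 6. Hist1h2be was at 9.09, 10.6 and 14.3 CPM against 9.03, 9.34 and 10.1 CPM (log2 0.16, or 0.08 without that library). Hist2h2be, a polyadenylated H2B form known from olfactory neurons, was the 1 gene of the 52 with a change below 0. It was at 4.88, 6.25 and 7.26 CPM against 6.80, 7.50 and 7.98 CPM, and none of the 7 kidney disease libraries reached the wild-type mean of 7.41 ± 0.504 CPM. Its log2 change was -0.25 (SE 0.085, edgeR unadjusted p = 0.00917, adjusted p = 0.197) and -0.22 without kidney disease 6. In kidney disease 6, where most histone genes were at their highest, it was 0.89 times the median of the other kidney disease libraries.

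H2B genes at lower levels differed more. Hist1h2bl was at 0.639, 0.845 and 2.82 CPM against 0.262, 0.467 and 0.996 CPM, with the largest log2 change of the 52 (1.14, SE 0.33, edgeR adjusted p = 0.105), and 0.72 without kidney disease 6. Only 17.2% of its windows are unique. Hist1h2bf was at 0.886, 1.32 and 2.66 CPM against 0.517, 0.780 and 1.06 CPM (log2 0.78, adjusted p = 0.107, or 0.54 without kidney disease 6). Hist1h2ba, the testis form of H2B, had at most 15 counts in a library and was not tested; the kidney disease libraries ranged from 0.0704 to 0.264 CPM and wild type from 0 to 0.120 CPM. The 4 markers of testis germ cells that were set beside these genes had sums of 0.227 to 0.472 CPM over the kidney disease libraries and of 0.162 to 0.331 CPM over wild type, and 3 of them (Prm1, Prm2 and Tnp1) had a median of at most 0.0093 CPM in either group.

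Of the H3 genes, Hist1h3e was highest. It was at 15.4, 17.5 and 35.5 CPM in kidney disease against 11.4, 13.8 and 18.01 CPM in wild type (log2 0.47, SE 0.16, edgeR adjusted p = 0.173, or 0.28 without kidney disease 6), and 26.6% of its windows are unique. Hist1h3f was at 8.80, 9.12 and 22.0 CPM against 6.54, 8.06 and 9.998 CPM, and without kidney disease 6, where the 22.0 CPM lay, its log2 change went from 0.45 to 0.18. Hist1h3c was at 2.11, 3.68 and 12.8 CPM against 1.06, 2.19 and 3.45 CPM, and its change went from 1.00 (adjusted p = 0.161) to 0.50. Hist1h3d was at 1.63, 2.65 and 6.76 CPM against 1.31, 1.66 and 2.87 CPM (log2 0.81, or 0.49 without that library). In each of these 4 the second highest kidney disease library lay at or under 22.0 CPM (Hist1h3e), 9.97 CPM (Hist1h3f), 4.04 CPM (Hist1h3c) and 2.91 CPM (Hist1h3d), so the group's upper end was 1 library.

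H4 genes make a single protein from many genes, and their levels ranged widely. Per kilobase of exon, Hist1h4h was the highest of all 67 genes, at 141 CPM per kb in kidney disease and 124 in wild type, ahead of Hist1h1c (77.6 and 60.6) and Hist1h4d (61.8 and 47.3). In CPM, Hist1h4h was at 56.4, 62.5 and 97.5 against 46.3, 57.0 and 68.9, a log2 change of 0.18 (SE 0.10, edgeR adjusted p = 0.526), or 0.06 without kidney disease 6. Hist1h4d was at 57.0, 65.4 and 104 CPM against 47.5, 52.1 and 62.7 CPM, and its change was 0.39 (SE 0.11, adjusted p = 0.0796), or 0.27 (adjusted p = 0.0959) without that library. Hist1h4c was at 31.1, 31.9 and 58.4 CPM against 22.0, 28.1 and 32.3 CPM (log2 0.38, adjusted p = 0.151, or 0.23 without that library).

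Hist1h4j, at chr13:21735064-21735837, was the H4 gene with the smallest p. Its level was 2.68, 3.10 and 7.87 CPM in kidney disease and 1.64, 2.16 and 2.76 CPM in wild type. The groups overlapped only between 2.68 and 2.76 CPM, and all 7 kidney disease libraries lay above the wild-type mean. The log2 change was 0.84 (SE 0.21, edgeR adjusted p = 0.0512), and 0.57 (SE 0.14, adjusted p = 0.0653) without kidney disease 6; it passed the threshold when kidney disease 7 was left out (adjusted p = 0.0481). Hist1h4f was at 6.53, 9.35 and 20.4 CPM against 4.42, 6.27 and 7.95 CPM (log2 0.67, adjusted p = 0.114, or 0.40 without kidney disease 6), and Hist1h4k at 3.60, 4.99 and 11.4 CPM against 2.89, 3.52 and 4.40 CPM (log2 0.68, adjusted p = 0.11, or 0.42 without it). Hist1h4b, named after its values were seen, was at 0.426 to 0.651 CPM against 0.392 to 0.647 CPM (log2 0.08, or 0.06 without kidney disease 6) and is 1 of the 3 genes in which kidney disease 6 was not the highest of all libraries, with Hist2h2be and Hist3h2a.

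**Figure D4:**
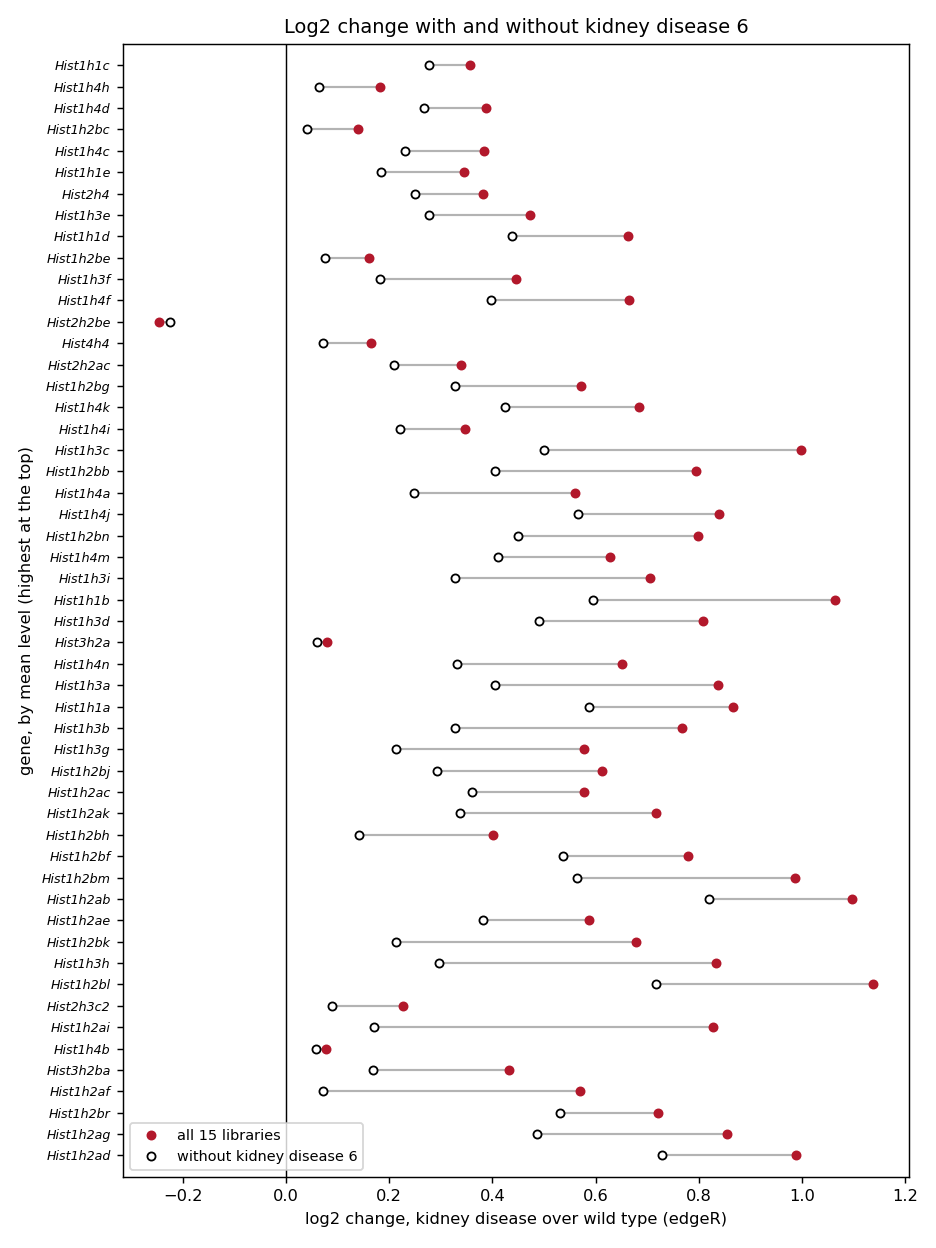
Log2 change (kidney disease over wild type, edgeR) of the 52 tested genes, ordered by mean level, over all 15 libraries (filled) and without kidney disease 6 (open). All but Hist2h2be lie above 0 in both fits, and the median goes from 0.62 to 0.31.

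Grouped by mean level, the 10 genes above 10 CPM had a median log2 change of 0.37 (0.24 without kidney disease 6), the 30 between 1 and 10 CPM a median of 0.67 (0.35), and the 12 tested genes under 1 CPM a median of 0.70 (0.26). The last 2 groups thus stood above the first over all libraries, while without kidney disease 6 the highest and lowest levels had nearly the same median; no test was made. The genes were also grouped by the annotated end nearest after the stem-loop. The 17 tested genes with a transcript that ends at the stem-loop had a median of 0.77 (0.41 without kidney disease 6). The 20 whose matching transcripts all run past it had a median of 0.39 (0.24), and the 15 with no match a median of 0.72 (0.33). In summed level the order was not kept: the ratio of group means was 1.29 for the first kind, 1.31 for the second and 1.25 for the third, or 1.13, 1.19 and 1.10 without that library. Level, length and sequence uniqueness all differ between these kinds of gene, and their parts were not tested.

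Kidney disease 6 held a median of 2.36 times the median of the other 6 kidney disease libraries over the 52 genes, and more than 2 times in 37 of them. The largest ratio was 5.08, for Hist1h2ai, named for this value, which was at 2.48 CPM there and at most 0.699 CPM in the other kidney disease libraries. Its log2 change was 0.83, or 0.17 without kidney disease 6. Over all genes the median ratio was 0.996. Other short coding genes were also raised there, by less: the median ratio was 1.45 for the 34 with under 500 bases of exon, 1.40 for 280 from 500 to under 1000 bases, 1.25 for 1593 from 1000 to under 2000 bases and 0.996 for 12574 longer ones. For the histone genes in the same ranges of length it was 2.95 (n = 18), 2.47 (n = 18), 1.82 (n = 9) and 1.47 (n = 7). Of the counts of coding genes other than histones and mitochondrial ones, 2.32% fell in genes under 1000 bases in kidney disease 6, and 1.51% to 1.89% in the other 14 libraries. The part of gene length in the histone values was not tested.

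**Figure D5:**
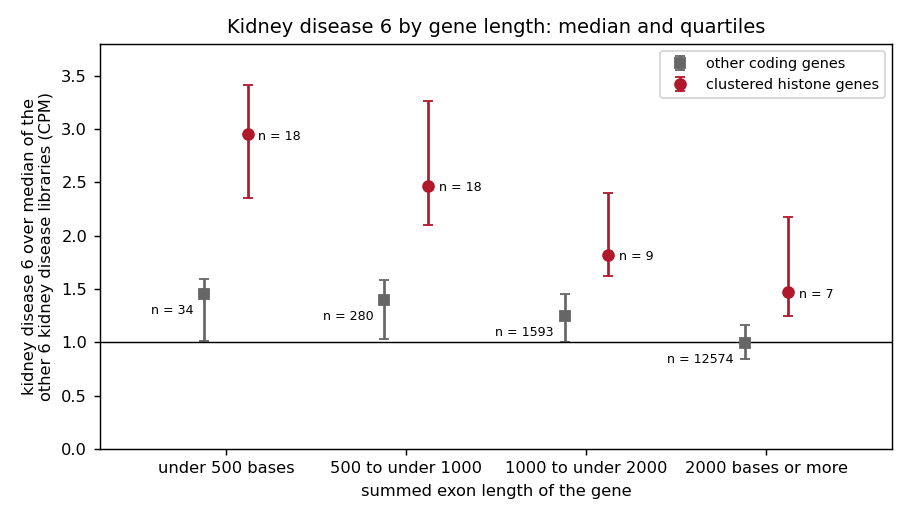
Level in kidney disease 6 divided by the median of the other 6 kidney disease libraries (CPM), as median and quartiles over genes, by summed exon length, for clustered histone genes and for other coding genes. The histone genes lie higher in each range of length, 2.95 against 1.45 under 500 bases, and both sets fall with length.

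Genes of DNA replication and the cell cycle were examined because clustered histone messages accompany replication. None of the 30 was called in either direction by edgeR (6 were higher and 1 was lower at an unadjusted p under 0.05; DESeq2 called 1, Mcm3, higher), and their median log2 change was 0.10, or 0.004 without kidney disease 6. Their summed level was 157 to 215 CPM (SD 20.6) in kidney disease, with 215 in kidney disease 6 and at most 172 elsewhere, and 151 to 166 CPM (SD 5.03) in wild type. Kidney disease 6 was the highest of all 15 libraries in 14 of the 30, against 20.8% of all genes. Mki67, a marker of cycling cells, was at 21.1 CPM there and at 5.80 to 11.9 CPM in the other kidney disease libraries, and at 2.702 to 10.1 CPM in wild type (log2 0.60, adjusted p = 0.352, or 0.34 without kidney disease 6). Top2a, which untangles replicated DNA, was at 10.3 CPM there, at most 5.76 CPM in the others and at most 4.46 CPM in wild type. Mcm3, part of the replicative helicase, had the smallest p of the list (5.88 to 8.49 CPM against 5.18 to 6.45 CPM, log2 0.31, adjusted p = 0.0932, or 0.27 without kidney disease 6). Rrm2, needed to make deoxynucleotides, had a log2 change of -0.17 (adjusted p = 0.71, or -0.24 without kidney disease 6). Mcm2, also of the helicase, had one of 0.01 (adjusted p = 0.972), which was -0.0016 without that library. Mki67, Rrm2 and Mcm2 are named with their values seen. The part of cycling cells in the histone values was not tested.

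Of the factors that make, process and protect histone messages, none of the 22 tested was called by edgeR or DESeq2 (1, Snrpg, was higher and none was lower at an unadjusted p under 0.05), and their median log2 change was 0.001, or -0.03 without kidney disease 6. Slbp, which binds the stem-loops shown above, was at 5.67, 6.22 and 8.91 CPM against 4.86, 6.37 and 8.13 CPM, with a log2 change of 0.05 that turned to -0.04 without kidney disease 6. Lsm10 and Lsm11, 2 proteins of the U7 particle, had log2 changes of 0.17 and -0.11 (edgeR adjusted p = 0.566 and 0.619; 0.07 and -0.09 without that library), and Npat, the activator of histone transcription at the clusters, one of 0.004 (0.01 without it). Slbp, Lsm11 and Npat are named for their roles, with their values seen. The list summed to 610 to 676 CPM over the kidney disease libraries and 579 to 667 CPM over wild type. The 17 histone chaperones, which carry histones to DNA, likewise held no gene called by edgeR or DESeq2 (1, Supt16, was higher and none lower at an unadjusted p under 0.05), with a median of 0.02, or 0.008 without kidney disease 6. Chaf1a, a subunit of the chaperone that loads histones behind the replication fork, is named with its values seen and had a log2 change of 0.01 that turned to -0.03 without that library.

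Replacement histones, which are made outside S phase from polyadenylated messages, were compared as the polyadenylated counterpart. None of the 12 was called by edgeR or DESeq2; H3f3b and H1f0 were higher and none was lower at an unadjusted p under 0.05. Their median log2 change was 0.14, or 0.05 without kidney disease 6, where 9 of the 12 were at their highest. H3f3b, which encodes the replacement histone of H3, was at 75.1, 83.4 and 105 CPM against 65.6, 74.0 and 78.0 CPM (log2 0.21, adjusted p = 0.148, or 0.16 without kidney disease 6). H1f0, the linker histone of resting cells, was at 64.4, 76.3 and 84.5 CPM against 59.2, 65.7 and 79.6 CPM (log2 0.16, adjusted p = 0.363, or 0.12 without kidney disease 6). In summed level they stood at 400 ± 42.7 against 370 ± 27.3 CPM (SD, n = 7 and 8), close in CPM to the clustered genes in wild type. Per kilobase of exon they were lower than the clustered genes. Their sum was 141 CPM per kb against 469 in wild type, and 153 against 619 in kidney disease.

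Among 10 other RNAs without a poly(A) tail, 4 could be tested and none was called by edgeR or DESeq2, nor did any have an unadjusted edgeR p under 0.05. Rn7sk, the RNA that holds the elongation factor P-TEFb inactive, was at 4337, 4945 and 8437 CPM against 3506, 4635 and 5608 CPM (log2 0.26, adjusted p = 0.473, or 0.12 without kidney disease 6). The 8437 CPM were in kidney disease 6, and the next value was 6106 CPM. Rn7s1, an RNA of the signal recognition particle, was at 210 CPM there and at most 122 CPM in the other kidney disease libraries, whereas its copy Rn7s2 was highest in kidney disease 1 (295 CPM). Rmrp, Terc and Rnu11 had no count in any library. How RNAs of this kind vary with the depletion of ribosomal RNA was not tested.

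Markers of other cell types were set beside the histone genes, since dividing cells of the ventricle are mostly not muscle cells. Macrophage markers were called higher in kidney disease in 5 of 6 (0.811% of all genes were; also 5 of 6 without kidney disease 6), with a summed level of 301 to 419 CPM against 211 to 263 CPM and the highest value in kidney disease 6; Csf1r, the receptor for the macrophage growth factor, had a log2 change of 0.39 (edgeR adjusted p = 0.00864; 0.40 without kidney disease 6). B cell markers were called higher in 5 of 6 (3 without kidney disease 6), at 16.9 to 27.4 against 7.10 to 15.001 CPM in sum, with the highest value in kidney disease 3. Fibroblast markers were called higher in 3 of 6 (Dcn, Lum and Dpt; 1 without kidney disease 6), at 663 to 742 against 571 to 683 CPM in sum, and kidney disease 6 held the lowest fibroblast sum of its group. No marker of cardiomyocytes (6 tested), endothelial cells (6), smooth muscle and pericytes (6), T and NK cells (5 of 6 tested), neutrophils (3 of 4), erythroid cells (6) or skeletal muscle (2 of 4) was called in either direction by edgeR or DESeq2; at an unadjusted edgeR p under 0.05, 3 cardiomyocyte and all 6 erythroid markers were lower, and 2 of smooth muscle and pericytes and 1 of neutrophils were higher. No marker that defines macrophages, B cells or fibroblasts was at 0. The part of these cell types in the histone values was not tested.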

How the data were processed

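RNA from 15 mouse left ventricles (7 kidney disease, 8 wild type) was sequenced, 1 library each. The submitters' processing notes name STAR 2.7.9a, featureCounts 2.0.3 (Subread), bcl2fastq and build GRCm38; the authors' counting options, strand among them, are not given there or in the file headers. The authors deposited for each gene a raw count, a CPM value and an FPKM value; recomputed from the counts, the deposited CPM and FPKM matched in 100% of values within 1e-06, and only counts were analysed. Groups come from the titles. The members and lists were chosen with earlier results of these data known. Genes were named by rule: in each class the 3 highest in mean CPM, the 12 smallest p-values, every gene past the threshold, known testis or polyadenylated forms, and the least and most unique sequences, plus up to 4 genes of each list by p; others with values are marked where named.

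edgeR 4.0.16 (R 4.3.3; filterByExpr with a minimum count of 10, TMM, quasi-likelihood F test) was fitted to all 20718 genes kept, with Benjamini-Hochberg adjustment and a threshold of 0.05, after recovering changes in simulated counts. Alternatives used DESeq2 1.42.0, limma 3.58.1, other scalings, filters, a replicate block, a covariate and left-out libraries. Replicate numbers were not taken to pair the libraries. Over 49 pairs of libraries within a group, chi-square per degree of freedom was at least 9.16, so no 2 agreed within sampling noise. Of 55487 gene IDs, 55227 matched the annotation, and all 67 histone genes had the same coordinates in both. Sequence windows were compared with 141767 annotated transcripts, with no genome sequence used here. The labels number no animals, so p-values measure the spread between these samples.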

Additional observations from a re-analysis of the deposited data

Results flagged for a closer look

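In 29 of 64 groups of values examined, 1 library lay further from the rest than Dixon's 95% limit allows. The groups were 5 class sums, the total and the 26 named histone genes with any count, in each group of libraries. By chance about 1 in 20 groups would pass this limit, but the share over all genes was not taken. Kidney disease 6 held the highest value for 20.8% of all genes tested. The genes are not independent of each other, and the sums hold the same genes. In 27 of the 29 the library that lay apart was the highest kidney disease library, kidney disease 6. Its summed level was 884 CPM over all histone genes, with the next library at 557 CPM, and by class 261 CPM for H1, 29.4 for H2A, 122 for H2B, 105 for H3 and 366 for H4.

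Among single genes of H1, kidney disease 6 lay apart at 5.09 CPM for Hist1h1a, 9.12 for Hist1h1b, 30.4 for Hist1h1d and 56.8 for Hist1h1e. The H2A genes concerned were Hist1h2ab (2.87 CPM), Hist1h2ac (2.71) and Hist2h2ac (8.26). The H2B genes were Hist1h2bc (52.7 CPM), Hist1h2be (14.3), Hist1h2bf (2.66) and Hist1h2bl (2.82). The H3 genes were Hist1h3c (12.8 CPM), Hist1h3d (6.76), Hist1h3e (35.5) and Hist1h3f (22.0). The H4 genes were Hist1h4c (58.4 CPM), Hist1h4d (104), Hist1h4f (20.4), Hist1h4h (97.5), Hist1h4j (7.87) and Hist1h4k (11.4). Hist1h1c was not among them, with 160 CPM and the next library at 139 CPM.

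In wild type, library 5 lay apart in 2 genes, at 0.996 CPM for Hist1h2bl (next 0.594 CPM) and 2.87 CPM for Hist1h3d (next 1.94 CPM).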

How the results depend on the processing

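Of the histone genes, 1 was called higher over all libraries, 3 with upper-quartile scaling, 6 with library totals alone, 5 with no filter on low counts, 2 with a filter of 1 CPM in 7 libraries, 10 with DESeq2, 0 with limma-voom, 7 with a covariate for whether Ttn or mt-Co1 led the library and 0 in the 10 libraries led by mt-Co1 only; leaving out 1 library gave 0 to 1. None was called lower under any of these. Among all genes, 266 were called (168 higher and 98 lower). Library totals gave 496 (435 and 61), DESeq2 640 (379 and 261), the covariate 523, and the libraries led by mt-Co1 86 (50 and 36); leaving out 1 library gave 97 to 388. With the replicate number as a block, 0 histone genes and 114 genes in all were called (63 higher, 51 lower); the correlations of same-numbered libraries ran from -0.20 to 0.42, 2 of 7 kidney disease libraries correlated best with their own number, and the numbers were not taken to pair the samples. Hist1h2ab passed the threshold in 8 of its 25 alternatives (adjusted p from 0.00465 to 0.163) and Hist1h4j in 7 of 26 (0.00436 to 0.109). The difference between the group means of log2 summed histone level, 0.345, was 0.227 to 0.382 with 1 library left out, and the median log2 change 0.31 to 0.70; both lowest values came without kidney disease 6. The left-out libraries for the median, and leaving out kidney disease 6 for class and cluster sums and for non-overlapping groups, were chosen after seeing the data. No named histone gene or histone sum changed direction under these alternatives; among other genes, refitted here without kidney disease 6, Slbp (0.05 to -0.04), Chaf1a (0.01 to -0.03) and Mcm2 (0.01 to -0.0016) did, and so did the median of the processing factors (0.001 to -0.03). Apart from fewer samples or genes in the left-out and filtered fits, the cause was not tested. The median share of unique windows was 46.0% with windows of 50 bases and 62.9% with 100; the planned comparison with a genome sequence was not run. Depth limits the 9 untested genes that had counts.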

Other observations

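The 4 atrial muscle markers (Nppa, Myl7, Sln and Myl4), none of which was called by edgeR or DESeq2 or had an unadjusted p under 0.05, summed to 29.2 CPM in kidney disease 6 and 34.4 CPM in wild type 5, the lowest of each group. The other libraries held 351 to 1378 CPM (kidney disease 389 to 1378, wild type 351 to 1169). Wild type 5 was also the library with the highest wild-type value in 24 of the 52 tested histone genes; wild type 6 held it in 9, and wild type 1 and 8 in 7 each. These libraries were singled out after their values were seen, and no test was made. Without kidney disease 6, kidney disease 3 held the highest value of its group in 23 of the 52 genes, kidney disease 1 in 12, kidney disease 7 in 8 and kidney disease 4 in 7.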
